A study of Homo sapiens with 8 samples.

Results

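The untreated state of 2 stable clones of LN229, a human glioblastoma cell line, was compared here. Clone Surv-GFP (D6) carries Survivin fused to eGFP from the plasmid pcDNA3.1-survivin-eGFP, and clone SurvNESmut-GFP (L2) carries the same fusion with its nuclear export sequence (NES) mutated by L96A and L98A. Both clones were selected and kept in G418 and neither received temozolomide (TMZ) in these libraries. The members are the 4 untreated libraries of the 8 in the series, 2 per clone, lettered a and b, and they were taken by their sample labels. The other 4 libraries are the same clones after 50 µM TMZ for 48 h. They enter the filter on low counts, the scaling and the shared estimate of the spread. Beyond this, they serve only as separate libraries of a clone and in a closing comparison with TMZ. Each construct is represented by 1 clone, so an effect of the NES mutation and a difference between the cells each clone grew from cannot be told apart. The labels do not say whether the letters are separate cultures. The p-values here measure only the spread between libraries of the same group, estimated over all 8 libraries, and this spread may be technical.

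Survivin, the product of BIRC5, belongs to the chromosomal passenger complex that guides mitosis, and its NES lets it leave the nucleus. Glioblastoma cells can carry programmes of the astrocyte, oligodendrocyte and neural progenitor lineages or a mesenchymal programme rich in matrix and inflammatory genes. Class II antigen presentation, in which CIITA switches on the HLA-D genes and CD74, is best known from professional immune cells but also occurs in some glioma cells. A stable clone grows from a single cell, and clones of a line can keep different genes switched off.

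Between 17793498 and 18861603 reads were counted on genes in the 4 libraries, and of 26364 genes 14201 passed a filter on low counts and entered edgeR's quasi-likelihood F test. All values are CPM, counts scaled to a common library size by TMM, fold changes are SurvNESmut-GFP against Surv-GFP, and a gene was called at a Benjamini-Hochberg adjusted p of at most 0.05. Across genes, the correlation of log2 CPM was 0.996 between the letters of each clone and 0.914 to 0.917 between the clones. SurvNESmut-GFP was higher in 4926 genes (34.7% of the tested genes) and lower in 4180 (29.4%). At least 2-fold, it was higher in 1115 (7.85%) and lower in 1103 (7.77%). Every count of list members below has these shares over all tested genes as its background. The median log2 fold change over all tested genes was 0.03.

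BIRC5, the gene that both constructs carry, had 1152 and 1113 CPM in Surv-GFP and 407 and 414 CPM in SurvNESmut-GFP. Its level was therefore lower in SurvNESmut-GFP (log2 fold change -1.46 ± 0.05, SE, adjusted p = 1.3e-13). Reads of the fusion and of the endogenous gene are counted together, and the NES substitutions cannot be seen in gene counts. Of 41 proliferation genes, 35 were higher and 3 lower in SurvNESmut-GFP, mostly by less than 2-fold, with a median log2 fold change of 0.51. BIRC5 itself is in this list and was its only member at least 2-fold lower. UBE2C, a ubiquitin-conjugating enzyme of mitotic exit, had 97.4 and 102 CPM against 260 and 257 CPM. AURKA, a mitotic kinase, rose likewise, by 1.31 ± 0.05 (SE) on the log2 scale. These values stand beside every list below, and the part of proliferation in them was not tested.

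The identity of the cells was checked with lineage markers. SOX10 (1285 and 1243 CPM against 740 and 720 CPM), VIM (3783 and 3696 against 3135 and 2873) and NES (711 and 760 against 925 and 1005), the last encoding the intermediate filament nestin, were high in all libraries. GFAP, the classical astrocyte filament, was at 0.331 to 0.921 CPM and too low to be tested, and PROM1 was at 0.163 CPM or less. Several defining markers of other cells had few or no reads. AIF1 and CDH5 had no read, and EPCAM, CDH1, PTPRC, ITGAM and CD3E were at 0.222 CPM or less. PECAM1 was at 0 in Surv-GFP and at 0.325 and 0.389 CPM in SurvNESmut-GFP, above the limit that a count of 0 allows in a library (3 counts, 0.163 to 0.167 CPM here). Some other markers of such cells also exceeded 3 reads in both libraries of a clone. CSF1R had 0 and 0 reads in Surv-GFP and 10 and 8 in SurvNESmut-GFP. TMEM119 had 2 and 1 against 8 and 9, and CD8A had 8 and 7 against 0 and 0. None of 10 lymphocyte markers and 1 of 14 macrophage and microglia markers passed the filter on low counts. Of 14 endothelial and pericyte markers 6 passed it, and their list summed to 91.2 and 92.8 CPM in Surv-GFP against 210 and 211 CPM in SurvNESmut-GFP. Most of this sum was FLT1, a VEGF receptor, which rose from 70.6 and 72.9 CPM to 188 and 188 CPM (1.39 ± 0.06, SE, adjusted p = 3.1e-12). KCNJ8, a potassium channel subunit of pericytes, rose from 0 and 0.110 CPM to 1.30 and 1.22 CPM, and VWF, the clotting factor of endothelium, fell from 0.867 and 0.828 CPM to 0.163 and 0.389 CPM, a call lost with DESeq2 and with a library left out.

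**Figure D1:**
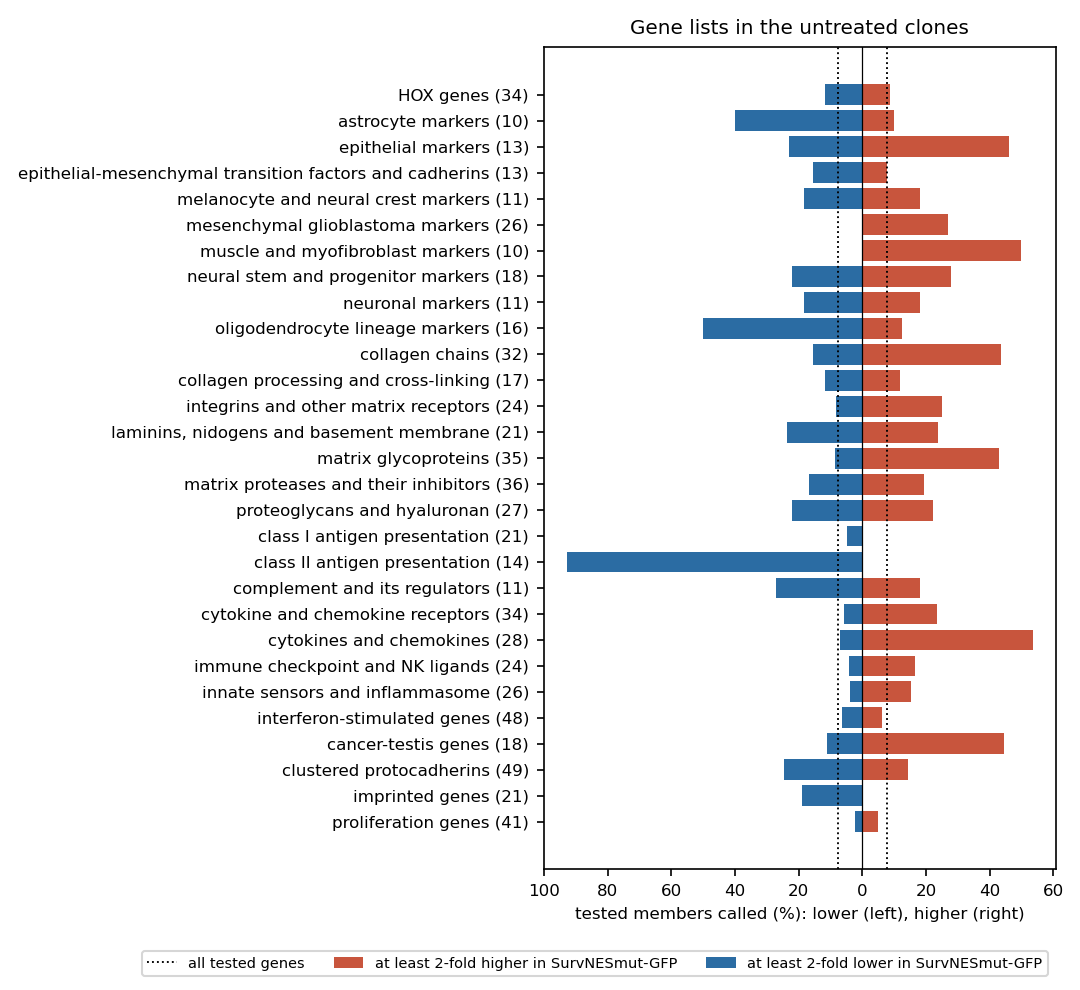
Share of tested members of each gene list (number tested in brackets) that were at least 2-fold higher (right, red) or at least 2-fold lower (left, blue) in untreated SurvNESmut-GFP at an adjusted p of at most 0.05, lists with 10 or more tested members. Dotted lines mark all tested genes (7.85% higher, 7.77% lower), and class II antigen presentation (13 of 14 lower), cytokines and chemokines (15 of 28 higher), muscle and myofibroblast markers (5 of 10 higher) and oligodendrocyte lineage markers (8 of 16 lower) lie far from them.

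Glial lineage markers were mostly lower in SurvNESmut-GFP. Of 10 tested astrocyte markers, 8 were lower and 2 higher, 4 and 1 of them at least 2-fold, with a median log2 fold change of -0.71. S100B, a calcium-binding protein of astrocytes and Schwann cells, had 798 and 756 CPM in Surv-GFP and 41.2 and 40.1 CPM in SurvNESmut-GFP. This is the largest fall of the list (-4.26 ± 0.09, SE, adjusted p = 1.4e-15), and the libraries of the clones lie far apart. FABP7, the brain fatty acid binding protein of radial glia, fell from 188 and 162 CPM to 15.4 and 14.9 CPM. GLUL, which makes glutamine from glutamate, had 148 and 144 CPM against 45.8 and 40.6 CPM. CLU, a secreted chaperone, was the member that rose at least 2-fold, from 2.87 and 3.26 CPM to 7.43 and 8.78 CPM.

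Of 16 tested oligodendrocyte lineage markers, 11 were lower and 3 higher, 8 and 2 of them at least 2-fold, with a median log2 fold change of -0.94. The transcription factor OLIG2, which specifies this lineage, had 35.2 and 32.7 CPM in Surv-GFP and 7.37 and 6.5 CPM in SurvNESmut-GFP (-2.29 ± 0.12, SE, adjusted p = 7.9e-11). Its relative OLIG1 and its partner NKX2-2 fell with it, by 2.24 and 1.55 on the log2 scale. PDGFRA, the growth factor receptor of oligodendrocyte progenitors, had 52.6 and 50.9 CPM against 18.9 and 16.7 CPM. ERBB3, a neuregulin receptor, fell from 1035 and 1047 CPM to 294 and 280 CPM. SOX10, a factor of oligodendrocytes and of neural crest glia, was lower by 0.79 on the log2 scale. In each of these genes the libraries of the clones did not overlap.

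A pair of myelin genes went the other way and had next to no reads in Surv-GFP. MBP, myelin basic protein, had no read in either Surv-GFP library and 7.10 and 6.22 CPM in SurvNESmut-GFP, at least 81.3-fold higher (a bound set by 3 counts over the Surv-GFP libraries). CLDN11, the tight junction protein of myelin, had 0.0542 and 0.166 CPM against 36.5 and 36.6 CPM. In the TMZ-exposed libraries of the clones, 6 of the 8 members that were at least 2-fold lower were lower again, and both members that were higher were higher again. Over all tested genes, 910 of the 1103 at least 2-fold lower were lower again, and 973 of the 1115 higher were higher again.

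Neural stem and progenitor markers split evenly, with 7 of 18 tested members higher and 7 lower, 5 and 4 of them at least 2-fold. Over all tested genes, 34.7% were higher and 29.4% lower, and 7.85% and 7.77% were so at least 2-fold. SOX2, a factor of neural and glioma stem cells, had 88.8 and 92.6 CPM in Surv-GFP and 33.6 and 35.2 CPM in SurvNESmut-GFP. SOX11 and HEY1, a transcription factor of newborn neurons and a Notch target, fell by 1.76 and 2.11 on the log2 scale. L1CAM, an adhesion molecule of growing axons, rose from 9.0 and 9.49 CPM to 225 and 218 CPM (4.58 ± 0.07, SE, adjusted p = 2.8e-16). LIF, a cytokine that keeps stem cells undifferentiated, had 74.5 and 77.2 CPM against 577 and 532 CPM. Of 11 tested neuronal markers, 3 were higher and 5 lower, 2 and 2 of them at least 2-fold. L1CAM, which is in this list too, and ENO2, with 17.3 and 18.8 CPM against 37.6 and 40.8 CPM, were the 2 that rose. MAP2, the dendritic microtubule protein, fell from 167 and 153 CPM to 20.2 and 18 CPM, and CHGB from 2.38 and 1.49 CPM to 0.759 and 0.722 CPM. TUBB3, the neuronal tubulin, had 270 and 264 CPM against 290 and 281 CPM and was not called (adjusted p = 0.11).

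Of 26 tested markers of the mesenchymal glioblastoma state, 13 were higher and 7 lower in SurvNESmut-GFP, 7 and 0 of them at least 2-fold, with a median of 0.19. FOSL1, an AP-1 factor tied to this state, had 94.9 and 99.3 CPM against 346 and 333 CPM, and TGFBI, a matrix protein induced by TGF-β, 200 and 200 CPM against 597 and 619 CPM. CD44, the hyaluronan receptor often used for this state, differed little, with 566 and 582 CPM against 656 and 650 CPM (0.19 ± 0.04, SE, adjusted p = 0.0015). VIM was lower by 0.32 on the log2 scale, so the markers did not rise as a block.

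Genes of contractile and epithelial cells were also among those that rose. Of 10 tested muscle and myofibroblast markers, 7 were higher and 1 lower, 5 and 0 of them at least 2-fold, with a median log2 fold change of 1.13. MYL9, a myosin light chain, had no read in Surv-GFP and 4.39 and 4.50 CPM in SurvNESmut-GFP, at least 54.2-fold higher. TPM1, tropomyosin, rose from 205 and 227 CPM to 669 and 714 CPM, but ACTA2, the smooth muscle actin, had 19.2 and 17.4 CPM against 20.9 and 19.5 CPM and was not called. Of 13 tested epithelial markers, 6 were at least 2-fold higher and 3 lower. The keratin KRT81 had 0.325 and 0.221 CPM against 42.6 and 52.5 CPM, and KRT80 had 0.867 and 1.27 CPM against 23.7 and 21.3 CPM. ESRP1, a splicing regulator of epithelial cells, fell from 4.99 and 4.19 CPM to 0.0542 and 0.111 CPM. The keratin KRT8, whose exons overlap those of KRT18, fell from 27.6 and 25.9 CPM to 11.8 and 10.9 CPM. EPCAM and CDH1 were too low to be tested, and the 23 markers of the list summed to 172 and 172 CPM in Surv-GFP and 222 and 240 CPM in SurvNESmut-GFP.

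Among the matrix genes, most collagens were higher in SurvNESmut-GFP. Of 32 tested collagen chains, 20 were higher and 11 lower, 14 and 5 of them at least 2-fold, and the median log2 fold change was 0.68. COL1A2, which forms type I collagen together with COL1A1, had 3.58 and 2.59 CPM in Surv-GFP and 500 and 495 CPM in SurvNESmut-GFP (7.33 ± 0.14, SE, adjusted p = 1.3e-15). COL1A1 rose too, but to a lower CPM, from 6.45 and 6.18 to 41.2 and 43.8 CPM. COL3A1, the fibrillar chain of type III, had 0.488 and 0.773 CPM against 6.02 and 7.28 CPM. The libraries of the clones did not overlap in any of these 3 chains. The type V chains COL5A1, COL5A2 and COL5A3 rose by 1.55, 0.77 and 1.10 on the log2 scale.

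The basement membrane chains COL4A1 and COL4A2, whose genes lie head to head, rose by 2.33 and 1.55 on the log2 scale. COL4A1 had 146 and 136 CPM against 723 and 694 CPM. COL7A1, the anchoring fibril chain, had 8.13 and 8.17 CPM against 75.7 and 79.3 CPM. The chains that fell at least 2-fold were COL2A1, COL9A1, COL11A2, COL15A1 and COL19A1, of which types II, IX and XI are known from cartilage. COL11A2 had 737 and 689 CPM against 54.4 and 59.5 CPM, and COL9A1 14 and 11.1 CPM against 0.705 and 0.278 CPM. All 14 chains that were at least 2-fold higher were higher in the TMZ-exposed libraries as well, and 4 of the 5 that were lower were lower again. Most genes did so (973 of 1115 and 910 of 1103 over all tested genes).

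Of 35 tested matrix glycoproteins, 22 were higher and 8 lower, 15 and 3 of them at least 2-fold, with a median of 0.58. THBS1, a thrombospondin that activates TGF-β, rose from 129 and 142 CPM to 1993 and 1922 CPM (3.85 ± 0.09, SE, adjusted p = 2.8e-15). POSTN, periostin, had no read in Surv-GFP and 4.88 and 4.78 CPM in SurvNESmut-GFP, at least 58.9-fold higher. FN1, fibronectin, had 3834 and 3477 CPM against 5660 and 5291 CPM, a rise of less than 2-fold. TNC and SPARC, a tenascin and a collagen-binding protein abundant in glioma, were lower by 0.77 and 0.81 on the log2 scale. FBLN1, fibulin, fell from 4.61 and 4.69 CPM to 0.108 and 0 CPM.

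Basement membrane glycoproteins and proteoglycans moved in both directions. Of 21 tested laminins, nidogens and their partners, 5 were at least 2-fold higher and 5 at least 2-fold lower. The median of this list was -0.37, or -0.18 with genes at 0 in a clone set to their bound. LAMA4, a laminin chain of vessels, had 784 and 743 CPM against 251 and 245 CPM, and FREM2, a basement membrane adhesion protein, 415 and 413 CPM against 72.7 and 63.3 CPM. NTN1 and NTN4, netrins, rose by 2.15 and 2.04 on the log2 scale. Of 27 tested proteoglycan and hyaluronan genes, 6 were at least 2-fold higher and 6 lower, with a median of 0.35. ACAN, aggrecan of cartilage, had 413 and 335 reads in the Surv-GFP libraries and none in SurvNESmut-GFP, while GPC3, a cell surface glypican, had 2 and 0 reads in Surv-GFP and 440 and 410 in SurvNESmut-GFP. VCAN, versican, was lower at the limit of 2-fold, with 811 and 823 CPM against 407 and 408 CPM.

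Of 24 tested integrins and other matrix receptors, 6 were at least 2-fold higher and 2 lower. ITGA11, the α chain of a collagen receptor, rose from 1.25 and 1.82 CPM to 26.6 and 28.0 CPM. ITGA3, which pairs with ITGB1 to bind laminin, had 605 and 647 CPM against 1990 and 2039 CPM. ITGB1, the shared β chain, rose by 0.51 on the log2 scale, and ITGAV (347 and 342 CPM against 356 and 374 CPM) was not called. Among 36 tested matrix proteases and inhibitors, 7 were at least 2-fold higher and 6 lower. ADAMTS4, an aggrecan-cleaving protease, fell from 85.9 and 71.3 CPM to 2.28 and 2.17 CPM, and ADAMTS5, of the same activity, rose from 1.95 and 0.938 CPM to 14 and 12.9 CPM. Among 17 tested collagen-processing genes, 2 were at least 2-fold higher and 2 lower. Over all tested genes, 7.85% were at least 2-fold higher and 7.77% at least 2-fold lower. SERPINH1, the collagen chaperone, had 1226 and 1150 CPM against 388 and 351 CPM, and TGM2, a cross-linking transglutaminase, 279 and 282 CPM against 1074 and 1005 CPM.

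**Figure D2:**
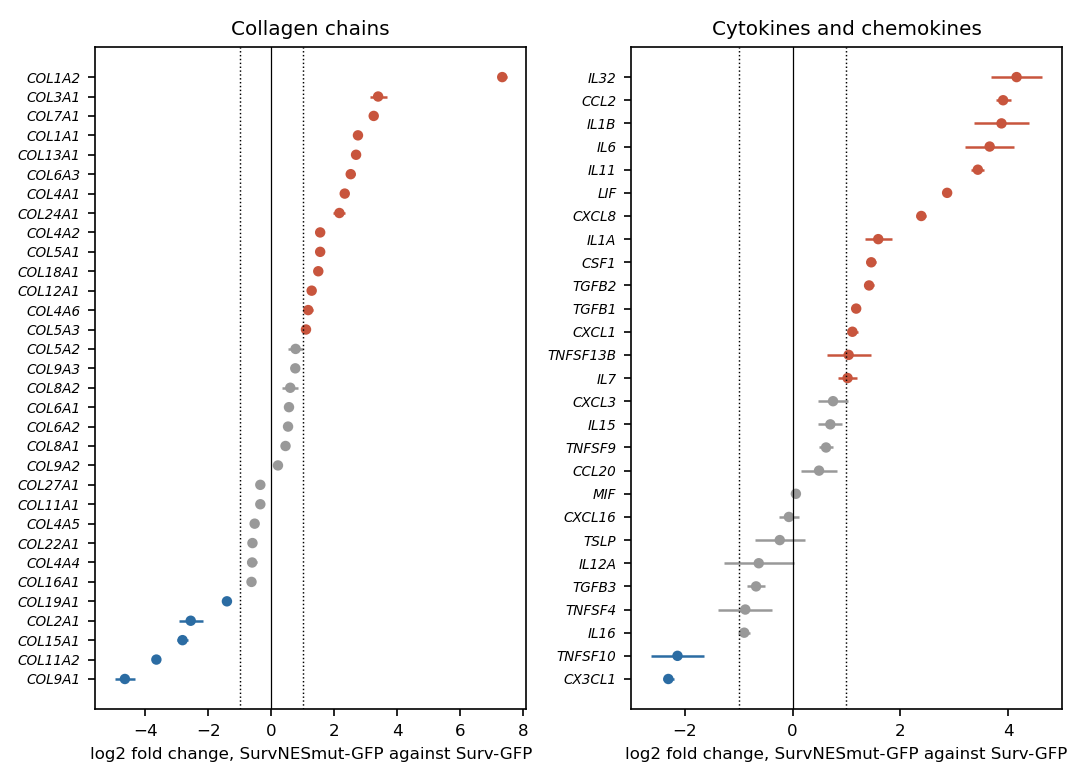
Log2 fold change of untreated SurvNESmut-GFP against untreated Surv-GFP (horizontal axis) for each tested collagen chain (left) and cytokine or chemokine (right), with bars of 1 SE, 2 libraries per clone. Red and blue points passed the adjusted p of 0.05 and a 2-fold change, grey points did not, dotted lines mark 2-fold, and IL24, at 0 in Surv-GFP, is left out. COL1A2 stands apart at 7.33, and IL32, CCL2, IL1B, IL6 and IL11 lie above 3.

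Among the immune lists, class II antigen presentation had the largest share of called members, and 13 of 14 members were at least 2-fold lower in SurvNESmut-GFP, with a median log2 fold change of -2.17. CIITA, the factor that switches these genes on, had 75.3 and 84.0 CPM in Surv-GFP and 15.8 and 14.3 CPM in SurvNESmut-GFP. Of the peptide-presenting chains, HLA-DRA had 981 and 920 CPM against 169 and 160 CPM (-2.53 ± 0.05, SE, adjusted p = 1.4e-15). HLA-DPB1 had 203 and 188 CPM against 34.5 and 33.3 CPM, and HLA-DQA1 47.0 and 44.0 CPM against 2.39 and 2.11 CPM. CD74, the invariant chain that guards the peptide groove, had 1706 and 1582 CPM against 361 and 331 CPM.

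The peptide-loading genes HLA-DMA and HLA-DMB fell by 1.93 and 1.98 on the log2 scale, and HLA-DOA and HLA-DOB, which modulate loading, by 2.74 and 3.11. The member that rose was CTSS, a lysosomal protease that trims CD74 and has other substrates, with 9.05 and 6.62 CPM against 12.9 and 12.1 CPM. All 13 genes were lower in the TMZ-exposed SurvNESmut-GFP libraries too, where the median of the list was -1.76. The same held for 910 of the 1103 genes at least 2-fold lower over all tested genes. Reads of HLA-DRB1 and HLA-DRB5, near-identical copies, and of the overlapping HLA-DPA1 and HLA-DPB1 may have been divided between them by the counting.

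**Figure D3:**
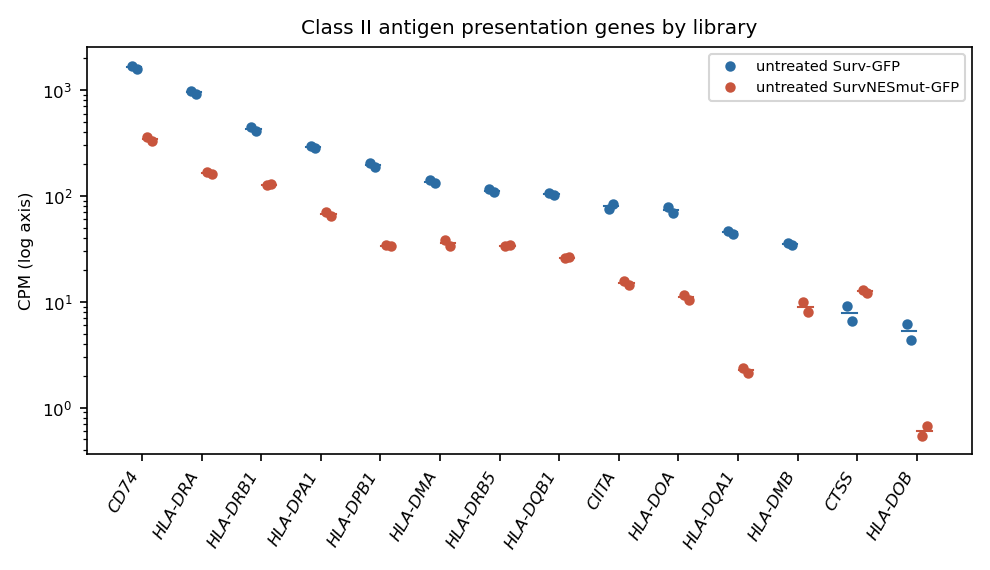
CPM on a log axis of the 14 class II antigen presentation genes in each untreated library (points) of Surv-GFP (blue) and SurvNESmut-GFP (red), with the mean of each clone as a line. In 13 genes both Surv-GFP libraries lie above both SurvNESmut-GFP libraries, and CTSS shows the opposite order.

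The regulatory sequence before these genes is shown because they moved together. Promoters of class II genes are known to carry an inverted CCAAT element, the Y box, bound by NF-Y. RefSeq windows (GRCh38.p14) were at hand for 10 of the 14 genes, too few for a check over the list. Each of those 10 held CCAAT on either strand in the 250 bases before the start, as did 35.2% of 13127 promoters of genes in the count file. Of 12 class I antigen presentation genes with a window, 7 (58.3%) held it too. Capitals mark CCAAT or its reverse ATTGG in HLA-DQA1 (chr6:32637156-32637405, plus strand), HLA-DPB1 (chr6:33075740-33075989, plus strand) and CD74 (chr5:150412911-150413160, minus strand), printed 5′ to 3′ along the gene. In CD74 the only match is CCAAT itself and not the inverted form. A match is a description and does not show binding.
HLA-DQA1: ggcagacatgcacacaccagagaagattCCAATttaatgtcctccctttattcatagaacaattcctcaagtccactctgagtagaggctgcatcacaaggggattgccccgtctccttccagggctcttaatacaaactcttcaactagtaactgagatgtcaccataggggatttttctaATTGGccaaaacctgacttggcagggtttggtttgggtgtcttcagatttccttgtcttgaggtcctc
HLA-DPB1: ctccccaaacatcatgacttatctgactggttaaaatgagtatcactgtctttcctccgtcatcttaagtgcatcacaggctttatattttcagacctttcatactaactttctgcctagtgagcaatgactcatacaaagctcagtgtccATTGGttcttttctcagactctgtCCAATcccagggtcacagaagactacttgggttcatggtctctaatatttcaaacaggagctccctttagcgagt
CD74: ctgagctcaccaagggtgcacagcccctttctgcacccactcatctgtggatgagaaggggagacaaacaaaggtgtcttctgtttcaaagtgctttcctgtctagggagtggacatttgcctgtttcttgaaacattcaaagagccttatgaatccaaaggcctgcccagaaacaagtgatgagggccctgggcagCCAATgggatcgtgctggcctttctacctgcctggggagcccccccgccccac

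Class I antigen presentation differed far less. Of 21 tested members, 7 were higher and 9 lower, but 1 was at least 2-fold lower and 0 at least 2-fold higher, with a median of -0.05. That member was HLA-B, with 60.6 and 55.2 CPM against 27.6 and 26.7 CPM. B2M, the light chain of all class I molecules, rose by 0.31 on the log2 scale, and NLRC5, the class I counterpart of CIITA, fell by 0.70. Interferon-stimulated genes lay near the background, with 3 of 48 tested members at least 2-fold higher and 3 lower and a median of 0.03. BST2, which tethers budding viruses, rose from 2.87 and 2.37 CPM to 31.9 and 33.3 CPM. IFITM2, which blocks viral entry, fell from 62.3 and 49.7 CPM to 5.64 and 5.95 CPM. IRF9, which carries the interferon signal to DNA, had 17.1 and 18.4 CPM against 19.2 and 18.8 CPM and was not called.

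Cytokines and chemokines were mostly higher in SurvNESmut-GFP. Of 28 tested members, 18 were higher and 4 lower, 15 and 2 of them at least 2-fold, with a median log2 fold change of 1.03. CCL2, which attracts monocytes, had 7.37 and 7.51 CPM in Surv-GFP and 114 and 110 CPM in SurvNESmut-GFP (3.91 ± 0.14, SE, adjusted p = 4.7e-13). IL11, a cytokine of the IL6 family, had 6.45 and 6.07 CPM against 64.5 and 71.7 CPM. CXCL8, which attracts neutrophils, had 12.0 and 9.66 CPM against 55.3 and 58.5 CPM. IL6 and IL1B, central inflammatory cytokines, were low in both clones, IL6 with 0.271 and 0.110 CPM against 2.77 and 2.22 CPM and IL1B with 0.0542 and 0.221 CPM against 1.84 and 2.39 CPM.

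The growth factors TGFB1 and TGFB2 rose by 1.18 and 1.42 on the log2 scale. CX3CL1, fractalkine, fell from 35.3 and 33.3 CPM to 7.32 and 6.5 CPM, and TNFSF10, the death ligand TRAIL, from 0.921 and 1.55 CPM to 0.380 and 0.167 CPM. MIF, an abundant member, had 422 and 403 CPM against 427 and 430 CPM and was not called. In the TMZ-exposed libraries, 9 of the 15 members that were at least 2-fold higher were higher again and 6 were lower in SurvNESmut-GFP, and the median of the list was -0.45. Over all tested genes, 973 of the 1115 at least 2-fold higher were higher again and 45 were lower.

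Of 34 tested cytokine and chemokine receptors, 8 were at least 2-fold higher and 2 lower. IL4R, the receptor of IL4 and IL13, had no read in Surv-GFP and 3.47 and 3.50 CPM in SurvNESmut-GFP, at least 42.5-fold higher, while IL18R1 had 1.25 and 0.828 CPM against 10.0 and 10.4 CPM. TNFRSF19, a receptor of the TNF family, fell from 388 and 382 CPM to 133 and 121 CPM. OSMR, IL6ST and LIFR, receptor chains of the IL6 family, were lower by 0.38, 0.46 and 0.96 on the log2 scale, while IL6R (16.9 and 21.4 CPM against 17.2 and 15.9 CPM) was not called.

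Among 24 tested checkpoint and adhesion ligands of immune cells, 4 were at least 2-fold higher and 1 lower. CD40, a costimulatory receptor, had 0 and 1 reads in Surv-GFP and 5.10 and 5.11 CPM in SurvNESmut-GFP. VCAM1, which binds leukocyte integrins, had 0.163 and 0 CPM against 2.60 and 2.61 CPM, and CD274, the checkpoint ligand PD-L1, 2.33 and 2.32 CPM against 2.82 and 2.94 CPM without being called. Of 26 innate sensors, 4 were at least 2-fold higher and 1 lower. CASP1, the inflammasome protease, had 0.0542 and 0 CPM against 1.68 and 3.50 CPM, and its SurvNESmut-GFP libraries lie apart from each other. AIM2, a DNA sensor of the inflammasome, fell from 9.10 and 10.0 CPM to 1.19 and 1.0 CPM. Among 11 tested complement genes, C1S rose by 1.66 on the log2 scale, and the regulator CFI fell by 1.31.

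Genes silent in a clone were those with at most 3 reads over its 2 untreated libraries and at least 1 CPM in each untreated library of the other clone. By this rule 97 genes were silent in Surv-GFP, 0.763% of the 12711 genes at that level in SurvNESmut-GFP. In SurvNESmut-GFP 94 genes were silent, 0.739% of 12714. No read at all was counted for 40 and 41 of them. At the limit, 13 genes had 3 reads in Surv-GFP and 19 further genes had 4, and in SurvNESmut-GFP 23 had 3 and 10 had 4. Most silent genes were weakly expressed in the other clone, with a median of 3.34 CPM for those silent in Surv-GFP and of 4.51 CPM for those silent in SurvNESmut-GFP, and 18 of each exceeded 10 CPM. These values chose the genes and are given with no test.

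The highest of the genes silent in Surv-GFP was APCDD1L, related to an inhibitor of Wnt signalling, with 1 and 0 reads there and 6578 and 6213 reads in SurvNESmut-GFP. The ratio was 12837 (95% interval of the counts 2304 to 507066). TUBA3C, a testis tubulin with near-identical copies, had 1 and 0 reads against 1804 and 1893, and PIEZO2, a mechanically gated channel, 1 and 2 against 922 and 904. PDGFB, a growth factor of the PDGF receptors, had 1 and 1 reads against 810 and 721, a ratio of 768 (212 to 6349).

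Several others belong to the germ line. GAGE2A and PAGE2, cancer-testis genes of the X chromosome, had 0 and 0 reads against 889 and 921 and 1 and 0 reads against 761 and 711. Reads of the GAGE and PAGE families may fall on several near-identical copies. GTSF1 and RNF17, which act in the piRNA pathway and in germ cells, had no read in Surv-GFP and were at least 276-fold and at least 231-fold higher in SurvNESmut-GFP. LINC00221, a long non-coding RNA, and TENM2, a teneurin of neuronal adhesion, had no read either and were at least 314-fold and at least 178-fold higher. MBP, CD40, POSTN, MYL9, IL4R, VCAM1, CASP1 and GPC3, described above with their lists, are among the 97 genes.

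The highest of the genes silent in SurvNESmut-GFP was CPXM2, a secreted carboxypeptidase-like protein, with no read there and 999 and 857 reads in Surv-GFP, at least 616-fold higher in Surv-GFP. VANGL2, a core protein of planar cell polarity, had no read against 804 and 770, at least 523-fold higher in Surv-GFP. KCNK5, a potassium channel, and PPP1R26, a regulatory subunit of protein phosphatase 1, had no read either and were at least 366-fold and at least 355-fold higher. IQSEC1, an exchange factor of ARF GTPases, had 1 and 2 reads against 748 and 668, a ratio of 470 (161 to 2283). ZC4H2, KLHL13 and LRCH2 of the X chromosome had no read and were at least 232-fold, 180-fold and 172-fold higher in Surv-GFP. ARC, an immediate early gene of synapses, had 1 and 2 reads against 446 and 231, so its Surv-GFP libraries differed strongly from each other. FBLN1, ESRP1 and ACAN, described above, are among the 94 genes, as is OAS2, an interferon-stimulated antiviral enzyme with no read in SurvNESmut-GFP and 2.71 and 2.59 CPM in Surv-GFP.

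**Figure D4:**
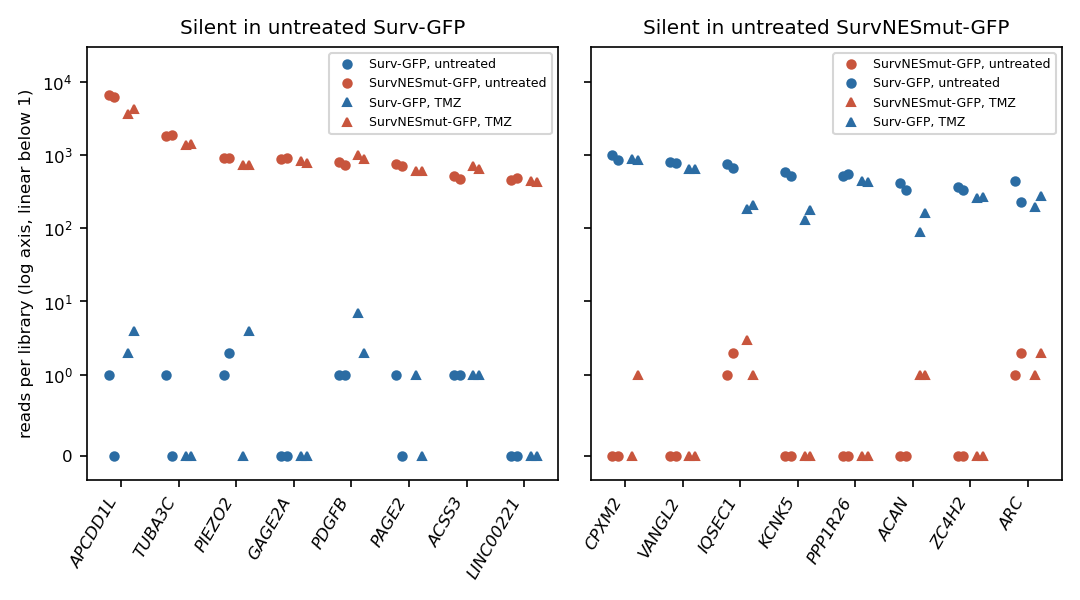
Reads per library (log axis, linear below 1) of the 8 genes with the highest CPM in the other clone among those silent in untreated Surv-GFP (left) and in untreated SurvNESmut-GFP (right), circles untreated and triangles TMZ-exposed, blue Surv-GFP and red SurvNESmut-GFP. Each silent gene has 0 to 2 reads in the untreated libraries of its silent clone and at most 7 in the TMZ-exposed ones, against at least 88 in every library of the other clone.

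The TMZ-exposed libraries, which the rule did not use, gave values of the same clones. Of the 97 genes silent in Surv-GFP, 77 again had at most 3 reads over its TMZ-exposed libraries, 82 again had at least 1 CPM in both TMZ-exposed SurvNESmut-GFP libraries, and 65 met both. Of the 94 genes silent in SurvNESmut-GFP, 81 again had at most 3 reads, 72 again had at least 1 CPM in the other clone, and 62 met both. KCNK5 and ACAN stayed within 2 reads in TMZ-exposed SurvNESmut-GFP, while in Surv-GFP KCNK5 had 6.84 and 10.1 CPM and ACAN 4.71 and 9.18 CPM with TMZ.

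Silent genes were spread over the genome with few direct neighbours. A place in RefSeq was found for 96 and 94 of them, and 11 (11.5%) and 14 (14.9%) lay on the X chromosome, which held 3.72% of all 12944 placed genes at 1 CPM or more in both libraries of a clone. Of the genes silent in Surv-GFP, 74 were protein-coding and 18 long non-coding RNAs, against 87 and 4 of those silent in SurvNESmut-GFP. No 3 silent genes of a clone followed each other directly. The pairs in Surv-GFP were MNX1 with MNX1-AS1, CCNYL2 with LINC00839 and TUBA3C with LOC101928697. The pairs in SurvNESmut-GFP were KCNH2 with NOS3, OAS2 with DTX1, PPP4R3CP with DCAF8L2 and ZC4H2 with ZC3H12B. These neighbours were chosen after their values were seen.

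The sequence before the start of the silent genes is shown because promoters rich in CG are those where silencing by methylation is best known. Methylation was not measured here. RefSeq windows were found for 46 of the 97 and 46 of the 94 genes, so a check over the silent genes is void. The highest genes with a window whose start is also in GENCODE v29 are printed, 2 for each clone, with CG in capitals. Silent in Surv-GFP were TUBA3C (chr13:19181825-19182074, minus strand, 14 CG) and PAGE2 (chrX:55088768-55089017, plus strand, 11 CG). Silent in SurvNESmut-GFP were CPXM2 (chr10:123891808-123892057, minus strand, 20 CG) and VANGL2 (chr1:160400314-160400563, plus strand, 25 CG). Of 13127 promoters of genes in the count file, expressed or not, 65.7% held 10 or more CG in these 250 bases, with a median of 17. Of 7441 promoters of genes at 1 CPM or more in both libraries of a clone, 89.0% did, with a median of 22. TUBA3C, PAGE2 and CPXM2 lie below that median and VANGL2 above it.
TUBA3C: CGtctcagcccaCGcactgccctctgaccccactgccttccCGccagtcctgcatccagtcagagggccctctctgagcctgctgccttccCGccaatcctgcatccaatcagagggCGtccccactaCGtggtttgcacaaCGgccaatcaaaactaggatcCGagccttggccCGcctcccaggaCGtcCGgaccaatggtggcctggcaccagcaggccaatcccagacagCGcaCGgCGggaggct
PAGE2: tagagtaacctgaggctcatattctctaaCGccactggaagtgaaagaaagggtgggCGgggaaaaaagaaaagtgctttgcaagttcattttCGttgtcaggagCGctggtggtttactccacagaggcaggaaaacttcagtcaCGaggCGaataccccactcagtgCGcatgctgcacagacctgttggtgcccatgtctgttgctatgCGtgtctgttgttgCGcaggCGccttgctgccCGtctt
CPXM2: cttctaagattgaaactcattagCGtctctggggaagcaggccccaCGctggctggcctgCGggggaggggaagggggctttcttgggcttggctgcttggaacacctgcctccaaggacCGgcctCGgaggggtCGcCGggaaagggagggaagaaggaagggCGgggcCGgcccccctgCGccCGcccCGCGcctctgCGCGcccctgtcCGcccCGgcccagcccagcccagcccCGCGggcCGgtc
VANGL2: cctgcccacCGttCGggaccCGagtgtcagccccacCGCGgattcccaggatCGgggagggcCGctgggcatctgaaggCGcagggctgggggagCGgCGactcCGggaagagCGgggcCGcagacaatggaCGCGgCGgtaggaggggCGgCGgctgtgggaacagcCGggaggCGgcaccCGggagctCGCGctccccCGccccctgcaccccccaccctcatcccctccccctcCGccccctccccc

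Expression also differed between the clones over whole stretches of chromosome, and the chromosomes themselves were not measured. Among the 455 tested genes of chromosome 15, 62.6% were higher and 10.1% lower in SurvNESmut-GFP, with a median log2 fold change of 0.37. On chromosome 20, 52.3% were higher and 19.7% lower, with a median of 0.24. Chromosome 18 showed the opposite, with 23.2% higher, 54.7% lower and a median of -0.26 over 190 genes. At least 2-fold, 65 were higher and 14 lower on chromosome 15, 34 and 26 on chromosome 20, and 17 and 15 on chromosome 18. The medians of the other chromosomes lay between -0.10 and 0.17.

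**Figure D5:**
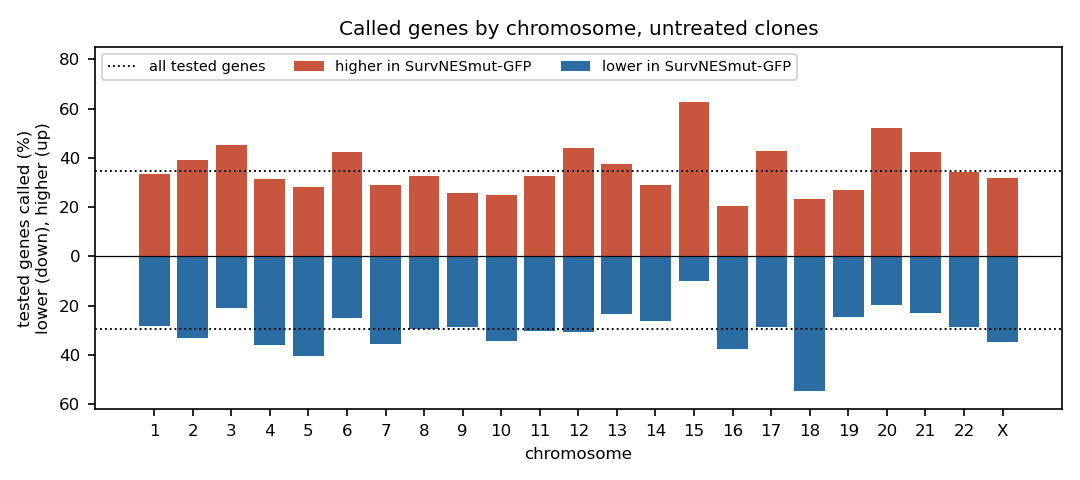
Share of tested genes of each chromosome that were higher (up, red) or lower (down, blue) in untreated SurvNESmut-GFP at an adjusted p of at most 0.05. Dotted lines mark all tested genes (34.7% and 29.4%), and chromosomes 15 and 20 exceed the upper line most, chromosome 18 the lower one.

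Runs of 25 neighbouring tested genes, ordered by RefSeq, were compared next. The run with the lowest median (-1.45) lay on chromosome 6 from AGPAT1 to COL11A2 and holds class II genes described above, with 18 genes lower, 14 of them at least 2-fold, and 2 higher. Its median was -1.55 between the libraries with the letter a and -0.92 between those with b. Medians by letter were taken from log2 ratios of CPM with a constant added, which shrinks the ratios of weakly expressed genes. They are a different measure from the fold changes of the fit and need not lie on both sides of its median. A run on chromosome 5 from ZNF346 to CLK4 had 24 of 25 genes lower and 0 higher, with a median of -0.95 (-0.93 for a and -0.92 for b). On chromosome 17, 18 of 25 genes from AMZ2 to TTYH2 were lower, with a median of -1.0 (-0.78 for a and -0.68 for b), whereas 23 of 25 from C17orf97 to SERPINF1 were higher, with a median of 0.79. The highest median (0.85) was found on chromosome 15 from PSMA4 to LINC01583, with 20 genes higher and 3 lower. Neighbouring genes are not replicates, and the number of copies of each chromosome was not measured here.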

How the data were processed

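RNA of the 2 clones was sequenced by the authors in 8 libraries, and the 4 untreated ones, 2 per clone, were compared. Libraries were grouped by their sample labels, and columns of counts were tied to them through the code that titles and column names share. The authors deposited raw read counts, whole numbers with no normalization, for 26364 gene symbols. A further 2 rows without a gene were left out (reads on no gene 11.2% to 12.8% and ambiguous reads 1.27% to 1.28% of each untreated library). The submitters' processing notes name STAR 2.5.0b, Cufflinks 2.2.1 and edgeR. Genome build, annotation and use of strand are not given in the sources, so genes overlapping a neighbour cannot be told apart from it. The authors' 5 comparison tables hold fold changes and p-values and were not used.

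The analysis used R 4.3.3 and edgeR 4.0.16 (TMM, filter on low counts by group, quasi-likelihood F test). Group means were fitted to all 8 libraries, which share the estimate of the spread, and p-values were Benjamini-Hochberg adjusted over 14201 tested genes. Lists were described by counts and medians. The named genes were BIRC5, the cell type markers, in each of 32 lists up to 3 genes per direction with the smallest p past 2-fold, the 10 largest changes per direction at 10 CPM or more in the higher clone, and the 8 highest silent genes per clone. Other list members were added after their values were seen. The comparison and the lists were chosen with earlier results of these data known. The rule also selects a few genes that are not reported here.

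A fold against a clone with no read is a lower bound, set with 3 counts over the clone's 2 libraries, and 95% intervals of ratios are exact (Clopper-Pearson). Both cover counting error only. Gene order, neighbours and promoters are from RefSeq (GRCh38.p14), where 1 place was found for 13903 of the tested genes. The fits were tested on simulated data. Alternatives were other size factors, filters and tests (DESeq2 1.42.0), the replicate letter as a term, the untreated libraries alone and each of them left out. Letters did not pair the libraries.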

Additional observations from a re-analysis of the deposited data

Results flagged for a closer look

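The clone difference of 5 named genes turned its direction between untreated and TMZ-exposed cells and passed the test of that difference (edgeR, adjusted over all tested genes). For SLC1A3, a glutamate transporter of astrocytes, the log2 fold change of SurvNESmut-GFP against Surv-GFP was -0.71 without and 3.11 with TMZ, a difference of -3.82 (adjusted p = 1.1e-09). For LIF it was 2.87 and -0.74, a difference of 3.61 (adjusted p = 1.1e-13), and for IL11 3.44 and -1.79, a difference of 5.23 (adjusted p = 3.9e-13). CNN1, calponin of smooth muscle, had 2.02 and -0.54, a difference of 2.56 (adjusted p = 2.6e-05). ECM2, a matrix protein near its detection limit, had -2.38 and 0.93, a difference of -3.31 (adjusted p = 0.0013).

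RPSAP52, a pseudogene transcript silent in untreated Surv-GFP, had 62 and 28 reads in the TMZ-exposed Surv-GFP libraries, a mean of 2.46 CPM, and was the only one of the genes silent in either clone that reached 1 CPM in both TMZ-exposed libraries of its silent clone. Its replicate values differ by more than 2-fold.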

How the results depend on the processing

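The 4 counts of called genes stayed within 1.5 times their value under every alternative. With DESeq2, 4039 genes were higher and 3700 lower, and 7722 of the 9106 genes called with edgeR were also called with DESeq2 in the same direction. With library size alone, 4364 were higher and 4753 lower. With the replicate letter as a block, 4859 were higher and 4112 lower, 1111 and 1095 of them at least 2-fold. The letters did not pair the libraries, as deviations with the same letter correlated with r of 0.0081 between the untreated clones.

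The silent genes depend on the limits that define them. With no read allowed, 40 genes were silent in Surv-GFP and 41 in SurvNESmut-GFP. With up to 10 reads, 166 were silent in Surv-GFP, and with at least 2 CPM in the other clone 64. With at least 0.5 CPM, 142 were silent in SurvNESmut-GFP. With a library left out, 103 to 139 were silent in Surv-GFP and 102 to 127 in SurvNESmut-GFP, as fewer libraries then have to meet the limits.

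Of 2048 alternatives for 158 named genes, 2041 kept the direction and the call and 0 turned the direction. The calls of CHGB, ESRP2 and VWF, each under 3 CPM in every untreated library, were lost in 7, with adjusted p of 0.05 to 0.21. Of 832 list counts, 806 stayed within 1.5 times, and the others were counts of 5 or fewer. In the cytokine receptors the block left 1 member at least 2-fold lower in place of 2. Runs of 50 genes gave medians between -0.82 and 0.73.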

Other observations

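Gene families of which clones often use different members are described gene by gene. Over all tested genes, 7.85% were at least 2-fold higher and 7.77% at least 2-fold lower in SurvNESmut-GFP. HOX genes lay near this background, with 3 of 34 tested members at least 2-fold higher and 4 lower. Their median log2 fold change was -0.12, and their mean was 0.05 when genes at 0 in a clone are set to their bound. HOXA7 had 0.379 and 0.662 CPM in Surv-GFP and 13.5 and 12.7 CPM in SurvNESmut-GFP, while HOXA10 (16.9 and 16.8 CPM against 17.3 and 18.5 CPM) was not called. HOXC12 had no read in Surv-GFP and 1.25 and 1.33 CPM in SurvNESmut-GFP, and HOXC10 of the same cluster fell from 48.9 and 49.7 CPM to 24.5 and 24.4 CPM. Of 49 tested clustered protocadherins, adhesion molecules that give neurons their identity, 7 were at least 2-fold higher and 12 lower. PCDHA1 fell from 22.3 and 24.8 CPM to 2.82 and 2.56 CPM, and PCDHA7 of the same array rose from 1.52 and 1.55 CPM to 15.8 and 12.1 CPM. These genes share their last exons, and reads on them may have been divided between genes by the counting.

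Of 18 tested cancer-testis genes, 8 were at least 2-fold higher and 2 lower, and the same 10 kept their direction with TMZ. Most genes did so (973 of 1115 higher and 910 of 1103 lower over all tested genes). SSX1 had 0.217 and 0.166 CPM in Surv-GFP and 41.2 and 40.1 CPM in SurvNESmut-GFP, and MAGEB2 had 3.03 and 3.53 CPM against 48.0 and 48.3 CPM. MAGEB1 had 3.14 and 2.81 CPM against 0 and 0.167 CPM. Of 21 tested imprinted genes, 0 were at least 2-fold higher and 4 lower. H19, a non-coding RNA expressed from the maternal allele, fell from 175 and 174 CPM to 27.5 and 24.4 CPM, and CDKN1C, a cell cycle inhibitor of maternal expression, from 10.5 and 8.83 CPM to 1.19 and 1.28 CPM. Allele-specific expression was not measured.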
